A study of Drosophila melanogaster with 3 samples.

Results

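Chrac-16 summits that lay just upstream of a promoter read in 1 direction only made up a large class of the Chrac-16 map, 1219 of the 4941 peaks of the optimal list (24.7%, exact 95% binomial interval 23.5 to 25.9). A peak belonged to the class when its summit, the base of highest enrichment, lay 1 to 500 bp upstream of the nearest annotated transcript start, and not between the starts of 2 divergent protein-coding genes at most 1000 bp apart. Position alone chose the peaks within the optimal list, not their signal, sequence, replication or genes. That list was itself thresholded on reproducibility over these replicates, which bounds signal and replication from below. Nearness to a start also limits the sequence that a window can hold. The map came from chromatin immunoprecipitation and sequencing (ChIP-seq) with an anti-GFP antibody in whole Drosophila melanogaster embryos of mixed sex, aged 0 to 24 h. All embryos came from 1 transgenic line with GFP joined to the C-terminus of Chrac-16. The 3 biological replicates formed the only group, with no untagged or treated group to compare. Whole embryos of all these ages were pooled, so a summit could not be traced to a cell type or stage. The other peaks comprised 1046 summits between divergent protein-coding starts (head-to-head summits), 285 summits 0 to 500 bp downstream of the nearest start and 2391 summits away from promoters.

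Chrac-16 is a small histone-fold protein. With Chrac-14, the ATPase Iswi and the large subunit Acf it forms CHRAC, the chromatin accessibility complex, which slides and evenly spaces nucleosomes. Promoters of active genes carry a nucleosome-depleted stretch just upstream of the start. In flies, housekeeping promoters are often marked by the DNA replication-related element (DRE), bound by DREF and overlapping sites of the insulator protein BEAF-32, or by Motif 1, bound by M1BP, while many developmental promoters carry GAGA sites or a TATA box.

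The strongest summits, and those that held a promoter motif, are shown by their sequence on the dm6 build, 5′ to 3′ on the strand of the nearest gene. CG14100 (chr3L:19590557-19590707, minus strand) and ph-p (chrX:2137259-2137409, minus strand) had the highest signals outside the arm not shown here, 2820.5 and 2176, with capitals at the summit and 3 bases on each side. Their windows held 34.4% and 33.8% GC.

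CG14100: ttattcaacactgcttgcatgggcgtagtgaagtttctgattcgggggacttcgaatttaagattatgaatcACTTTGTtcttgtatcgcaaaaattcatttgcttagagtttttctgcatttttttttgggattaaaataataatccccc
ph-p: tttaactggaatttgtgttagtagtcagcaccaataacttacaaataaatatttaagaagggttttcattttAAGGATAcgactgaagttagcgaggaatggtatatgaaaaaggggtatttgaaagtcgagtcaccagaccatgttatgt

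The next 3 windows hold a DRE, in capitals (TATCGATA, palindromic), at summits within 100 bp of a start. Stronger summits with a DRE in the same zone, those of Alg3 and RpS29, are not shown. The windows lie at eEF1gamma (chr3R:29220048-29220171, plus strand), CG7006 (chr3R:24850515-24850626, plus strand) and RpS10b (chrX:19597906-19598030, plus strand). Each ends at the base before the start. The DRE lies between the summit and the start in eEF1gamma, spans the summit in CG7006 and lies on the far side of it in RpS10b.

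eEF1gamma: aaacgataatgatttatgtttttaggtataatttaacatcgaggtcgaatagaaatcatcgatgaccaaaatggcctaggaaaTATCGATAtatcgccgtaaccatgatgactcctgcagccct
CG7006: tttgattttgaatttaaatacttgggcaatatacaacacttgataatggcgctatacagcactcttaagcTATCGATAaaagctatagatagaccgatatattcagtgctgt
RpS10b: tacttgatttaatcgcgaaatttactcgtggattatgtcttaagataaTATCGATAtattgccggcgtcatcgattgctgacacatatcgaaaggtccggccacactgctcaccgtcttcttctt

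The window of lute (chr3R:17385730-17385880, plus strand) holds the Motif 1 core, GGTCACAC, here on the opposite strand. That of cbt (chr2L:480009-480159, minus strand), centred 396 bp upstream, holds a GAGA site, GAGAG. Those of mtSSB (chr3R:16205461-16205611, minus strand) and InR (chr3R:21619372-21619522, minus strand) hold AGGTGGCG or its reverse complement, a word that resembles the core of the CTCF site. Capitals mark these matches.

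lute: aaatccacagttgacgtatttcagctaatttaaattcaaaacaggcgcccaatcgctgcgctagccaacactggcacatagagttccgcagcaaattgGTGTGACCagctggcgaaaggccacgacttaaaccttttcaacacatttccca
cbt: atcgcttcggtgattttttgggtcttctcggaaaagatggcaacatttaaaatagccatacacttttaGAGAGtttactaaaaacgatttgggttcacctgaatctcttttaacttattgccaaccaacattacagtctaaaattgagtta
mtSSB: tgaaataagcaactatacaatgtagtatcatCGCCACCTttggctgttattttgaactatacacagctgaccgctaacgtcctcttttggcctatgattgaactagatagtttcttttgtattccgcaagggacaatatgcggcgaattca
InR: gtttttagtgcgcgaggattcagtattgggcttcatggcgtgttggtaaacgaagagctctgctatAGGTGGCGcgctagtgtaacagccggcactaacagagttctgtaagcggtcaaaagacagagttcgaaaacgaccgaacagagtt

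The summits gathered between 50 and 250 bp upstream and thinned out farther away. The median position was -181 bp, with quartiles at -284 and -98 bp. When each replicate's 4941 strongest peaks were classed by their own summits, 1191, 1164 and 1219 fell in the class, or 24.1% ± 0.557 (SD, n = 3). The medians were -184, -186 and -173 bp, or -181 ± 7 bp. By bins of 50 bp, named by their bounds with the far bound included, the most summits, 204, lay at 100 to 150 bp, followed by 192 at 50 to 100 bp and 170 at 150 to 200 bp, and the outermost bin held 45. In the first bin, 0 to 50 bp, the optimal list had 122 summits and the replicates 125, 95 and 134. The 3 replicate summits at a peak spanned a median of 41 bp (quartiles 22 and 72 bp, 1194 peaks), so neighbouring bins were not sharply separated.

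**Figure D1:**
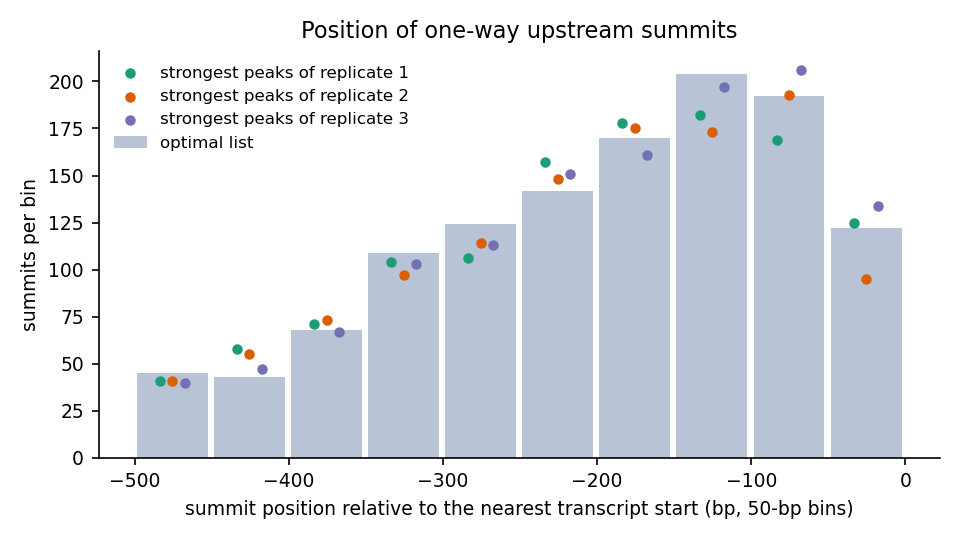
Number of one-way upstream summits per 50-bp bin of distance from the nearest transcript start (bars, optimal list; points, the strongest peaks of each of the 3 replicates). Counts peak at 204 between 100 and 150 bp upstream, and the replicates differ most in the bin nearest the start.

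The limits of the class cut through a continuous spread of summits. Just inside the 500 bp limit lay the summits of nw and CG15172, both at -498 bp with signals of 144 and 206, and of gem at -496 bp with a signal of 116. Just outside lay those of Nost at -502 bp (128), CG2201 at -503 bp (188) and Ogdh at -511 bp (129). At the other edge, the summit of ATPsynB, a subunit of the mitochondrial ATP synthase, lay 2 bp upstream of its start with a signal of 108.

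Signal differed with distance: the summits nearest the start were the weakest. The signal is the authors' enrichment score for a peak, without a unit and on a different scale in each list. Its median was 136 at 0 to 50 bp and 155 at 50 to 100 bp. It reached 228 at 150 to 200 bp and 222 at 200 to 250 bp, and lay between 177 and 190.1 beyond 250 bp. In the strongest peaks of replicates 1, 2 and 3, the medians were 52.1, 51.9 and 49.8 at 0 to 100 bp and 67.0, 70.2 and 70.4 at 100 to 300 bp. The ratio was 1.35 ± 0.0641 (SD, n = 3), higher in 3 of 3 replicates (exact sign-flip permutation test, two-sided, p = 0.25, adjusted p = 0.329 over 83 comparisons). With 3 replicates 0.25 is the smallest p that test can give, so no comparison over replicates could pass a threshold of 0.05, and the spread of the replicates is given instead. Across the 1219 summits Spearman's rho of distance and signal was 0.13, a description only, since the relation turned back beyond 250 bp. The lower signal near the start was not particular to the class. Head-to-head summits had replicate medians of 61.9 ± 1.61 at 0 to 100 bp and 73.7 ± 1.63 at 100 to 300 bp (SD, n = 3).

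Base composition changed at the same place. The median GC content within 75 bp of the summit was 41.7% at 0 to 50 bp, 39.1% at 50 to 100 bp and 33.1% at 100 to 150 bp, and stayed between 31.8% and 33.1% farther out. At 8400 one-way protein-coding starts with no summit of the pooled relaxed list within 500 bp, windows at the same distances went only from 42.4% to between 39.1% and 39.7%. Thus summits within 50 bp were within 1 point of starts without a summit, and those beyond 100 bp were about 6 to 7 points lower in GC. In the replicates the GC content was 39.4% ± 0.331 at 0 to 100 bp and 32.7% ± 0.382 at 100 to 300 bp (SD, n = 3), with no overlap. Head-to-head summits also differed between these zones, with a median GC content of 35.4% and 29.8% in the optimal list. GC content also moved with signal across summits (Spearman's rho -0.21, a description), and its part in the signal gradient was not tested.

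**Figure D2:**
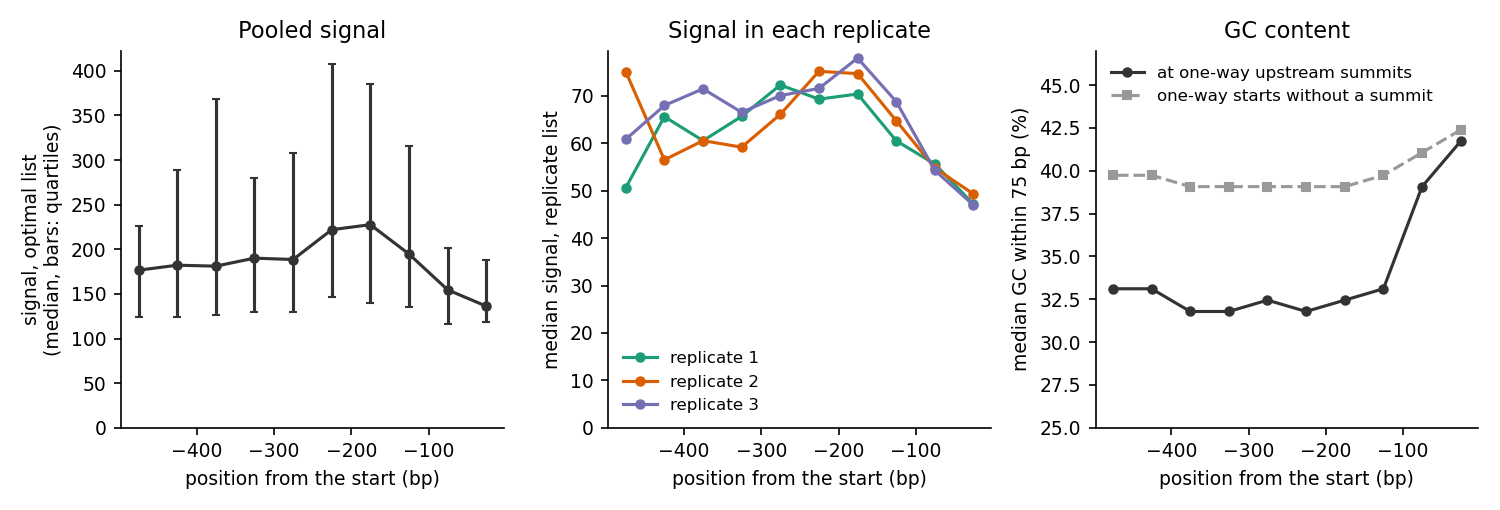
Left, median signal of one-way upstream summits in the optimal list by 50-bp bin (bars, quartiles); middle, the same median in the strongest peaks of each replicate; right, median GC content within 75 bp of the summits and at the same distances from 8400 one-way starts without a summit. Signal is lowest nearest the start, and GC content falls from 41.7% to about 32% while at starts without a summit it stays above 39%.

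Housekeeping promoter motifs were most frequent in the windows around the summits nearest the start. A DRE lay within 75 bp of the summit at 36 of 314 summits 0 to 100 bp upstream (11.5%, exact interval 8.16 to 15.5), at 17 of 640 at 100 to 300 bp (2.66%, 1.55 to 4.22) and at 4 of 265 at 300 to 500 bp (1.51%, 0.413 to 3.82). Intervals here cover counting error only. The strongest peaks of replicates 1, 2 and 3 gave 9.86%, 10.8% and 11.2% at 0 to 100 bp against 2.41%, 1.97% and 2.09% at 100 to 300 bp. The means were 10.6% ± 0.671 and 2.155% ± 0.227 (SD, n = 3), higher near the start in 3 of 3 (exact sign-flip permutation test, p = 0.25, adjusted p = 0.329). The replicate lists share most of these peaks. The SD of a motif share over replicates thus shows how far the peak lists repeat, not its counting error. In the bin nearest the start the share was 14.8%, against 2.17% in windows at the same distance from starts without a summit. A match in a window need not lie at the summit. Of 60 DRE matches over the class, 22 lay within 25 bp of it (36.7%), and the median offset was 40.5 bp.

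The BEAF-32 half-site CGATA, which is part of the DRE, followed the same course. It was present at 53.3% of summits in the first 50 bp, 46.9% at 50 to 100 bp and 32.4% at 100 to 150 bp, and between 13.95% and 26.7% beyond. Starts without a summit had 23.4%, 23.1% and 21.4% at those first 3 distances. The Motif 1 core went from 8.20% in the first bin to 1.18% at 150 to 200 bp, against 1.68% and 0.167% at starts without a summit. Motif 1 was present at 6.68% ± 1.13 of the replicates' summits at 0 to 100 bp and 1.51% ± 0.339 at 100 to 300 bp. A second form of Motif 7, CATCNCTA, was present at 8.21% ± 0.594 and 3.02% ± 0.0586, and the word CAACACTG at 10.5% ± 0.974 and 1.89% ± 0.361 (SD, n = 3). Both of these were added after all words of 8 letters had been counted at the summits, so their shares are descriptions.

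GAGA sites ran the other way. GAGAG was present at 12.3% and 13.0% of summits in the 2 bins nearest the start, below the 20.6% and 21.6% at starts without a summit. At 300 to 350 and 350 to 400 bp it was present at 26.6% and 25.0% of summits, above 15.7% and 15.2% at starts without one, but at 11.1% of the 45 in the outermost bin. In the replicates the share was 10.5% ± 0.623 at 0 to 100 bp and 17.5% ± 0.934 at 100 to 300 bp (SD, n = 3), while in the optimal list these 2 zones were closer, 12.7% and 15.0%.

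**Figure D3:**
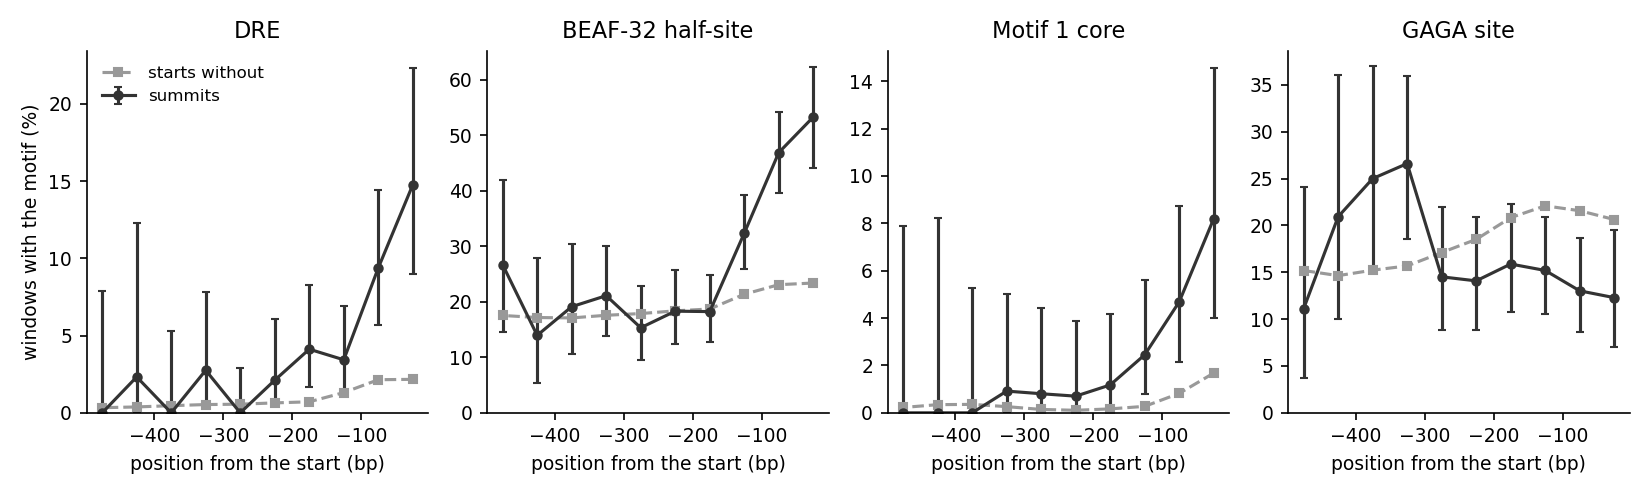
Share of windows of 75 bp on each side that hold each motif on either strand, by 50-bp bin of distance from the start: at one-way upstream summits (points with exact 95% intervals) and at the same distances from 8400 one-way starts without a summit (squares). DRE, the BEAF-32 half-site and the Motif 1 core are most frequent in the windows around the summits nearest the start, and GAGA sites at 300 to 400 bp.

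Summits with a DRE were weaker than those without. The 57 with a DRE had a median signal of 135 and a median position of -72 bp, and the 1162 without had 184 and -187.5 bp. The replicate medians were 52.3, 48.3 and 50.2 with a DRE and 61.3, 61.8 and 63.6 without, so the values did not overlap. With the class cut into 4 groups of near equal size by signal, from weakest to strongest, the DRE share went from 7.87% through 4.92% and 3.95% to 1.97%. Distance moved with signal in the same groups, from a median of -150 to -197 bp, and their parts were not tested. GAGA sites showed no such order, with 17.7% in the weakest group and 17.4% in the strongest.

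Against head-to-head summits, the one-way class had a lower DRE share, and near the start the difference was within its spread. The share was 4.68% (3.56 to 6.02) against 7.36% (5.85 to 9.11), and in the replicates 4.14% ± 0.201 against 7.64% ± 0.875, lower in 3 of 3 (exact sign-flip permutation test, p = 0.25, adjusted p = 0.329). Head-to-head summits are held near a start by the short gap between the genes, with a median of 88 bp to the nearest. Within 100 bp of the start the shares were 11.5% of 314 one-way and 12.3% of 486 head-to-head summits. In the replicates this difference was -1.28 ± 2.31 percentage points, with both signs (p = 0.5, adjusted p = 0.585, exact sign-flip permutation test). At 100 to 300 bp it was -1.03 ± 0.940 points, negative in 3 of 3 replicates, but only -0.115 points in the optimal list (2.66% against 2.77%). The half-site CGATA was at 28.8% of one-way and 36.4% of head-to-head summits overall. Within 100 bp it was at 49.4% and 47.7%, and the replicates gave 46.6% ± 2.22 and 48.0% ± 1.28, with mixed signs. At 100 to 300 bp it was at 22.2% and 24.7%, and the replicates gave 19.9% ± 1.67 and 26.0% ± 1.49.

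Some other differences from head-to-head summits were also present within the same distance zones. Distances inside a zone were not matched, so a part of distance can remain in them. Within 100 bp the one-way summits were weaker, with 0.828 ± 0.0298 of the head-to-head median signal in the replicates, and 3.64 ± 0.331 points higher in GC (SD, n = 3). At 100 to 300 bp the GC content was 2.87 ± 0.382 points higher, and the signal ratio 0.941 ± 0.0460. GAGA sites were at 17.5% ± 0.934 of one-way and 9.12% ± 0.812 of head-to-head summits at 100 to 300 bp, with no overlap, but at 10.5% ± 0.623 and 10.4% ± 1.67 within 100 bp, where the signs were mixed. At all distances GAGAG was at 16.1% of one-way summits, 10.2% of head-to-head summits and 15.7% of summits away from promoters. In the replicates the one-way share was 16.6% ± 0.529 and that away from promoters 16.1% ± 0.279, with mixed signs. CATCNCTA stayed lower in the one-way class within 100 bp, with a difference of -3.97 ± 0.428 points, though in the optimal list it was -0.993 points (11.1% against 12.1%). At 100 to 300 bp that difference was -0.0066 ± 0.201 points, with mixed signs. CATCNCTA was added after the word count at these same summits, so its differences and their p-values are descriptions. Each of these within-zone differences from head-to-head summits but the GAGA one within 100 bp and the CATCNCTA one at 100 to 300 bp had 1 sign in 3 of 3 replicates, with p = 0.25 and adjusted p = 0.329 in the exact sign-flip permutation test.

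The word resembling the CTCF core was rare but more frequent in the one-way class than at head-to-head summits. AGGTGGCG was present at 24 of 1219 one-way summits (1.97%, 1.27 to 2.92), 6 of 1046 head-to-head summits (0.574%, 0.211 to 1.24) and 18 of 8400 starts without a summit (0.214%, 0.127 to 0.338). Summits away from promoters had 1.80%, close to the one-way class. Replicates gave 1.71% ± 0.159 against 0.419% ± 0.141 at head-to-head summits (SD, n = 3). Of the 27 matches at one-way summits, 15 lay within 25 bp of the summit (55.6%), against 36.7% of DRE matches and 33.8% of GAGAG matches. Over the other motifs searched this share ran from 21.8% for the word CAGCTG to 47.6% of the 21 matches of the word CACGTG. The word was added after the word count, so the contrast is a description, and a match does not show a bound factor.

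The starts below these summits had few TATA boxes. TATAAA lay 20 to 40 bp upstream at 28 of 1073 protein-coding starts with a one-way summit (2.61%, exact interval 1.74 to 3.75), at 7.09% of all 13216 one-way protein-coding starts and at 8.90% of the 8400 starts without a summit. The initiator word TCAGTT, from 5 bp upstream to 8 bp downstream, was at similar shares, at 7.27%, 7.12% and 6.85%. GAGAG within 250 bp upstream was present at 38.7% of the starts with a summit, 33.1% of all one-way starts and 30.8% of those without a summit.

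As a class the one-way summits were weaker than head-to-head summits and stronger than the rest. The median signal was 180.3 (range 99.6 to 2820.5) against 198 at head-to-head summits, 163 at downstream promoter summits and 162.5 away from promoters. In replicates 1, 2 and 3 the one-way medians were 60.5, 61.1 and 62.7 and the head-to-head medians 66.6, 68.3 and 67.3, which did not overlap. The downstream medians were 53.4, 52.3 and 53.6. The ratio was 0.912 ± 0.0187 to head-to-head and 1.16 ± 0.0205 to downstream summits (SD, n = 3), each with 1 sign in 3 of 3 replicates (exact sign-flip permutation test, p = 0.25, adjusted p = 0.329).

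Most of these summits recurred. Of the 1219, 925 were met by a strongest peak of every replicate (75.9%, 73.4 to 78.3), against 80.4% of head-to-head summits, 76.5% downstream and 71.1% away from promoters. The share followed signal: with the whole optimal list cut into 4 groups of near equal size by signal, from weakest to strongest, it was 23.0%, 80.0%, 98.0% and 100%, and for head-to-head summits 24.0%, 78.3%, 99.6% and 99.7%. It was 62.7% at 0 to 100 bp, where signals were low, and 81.6% at 100 to 300 bp. With the whole relaxed lists 1218 of 1219 were found in all 3 replicates. The signal of a summit varied by a median of 14.8% (coefficient of variation over 3 replicates), and Spearman's rho between replicates was 0.836 to 0.852 over 1218 summits. The optimal list was drawn from these same replicates.

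The strongest one-way summit lay 108 bp upstream of CG14100, in the 249 bp between that gene and ash1, which encodes a Trithorax-group histone methyltransferase. Its signals in replicates 1, 2 and 3 were 990.0, 917 and 936. The summit at ph-p, which encodes the Polycomb-group protein Polyhomeotic, lay 479 bp upstream of a start within its own gene and had 736, 769.8 and 759.65. That of larp, which encodes an RNA-binding La-related protein, lay 338 bp upstream with 566, 564 and 526. Those of gish, encoding a casein kinase, had 489, 472 and 514, and those of elav, encoding a neuronal RNA-binding protein, 277, 309 and 316. Among the 20 strongest, px (851, 937 and 868) and Sox14 (460, 470 and 501), a transcription factor gene, lay on arm 2R at -210 and -258 bp. The summits at CG14100, px and ph-p stood above all others of the class in every replicate.

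**Figure D4:**
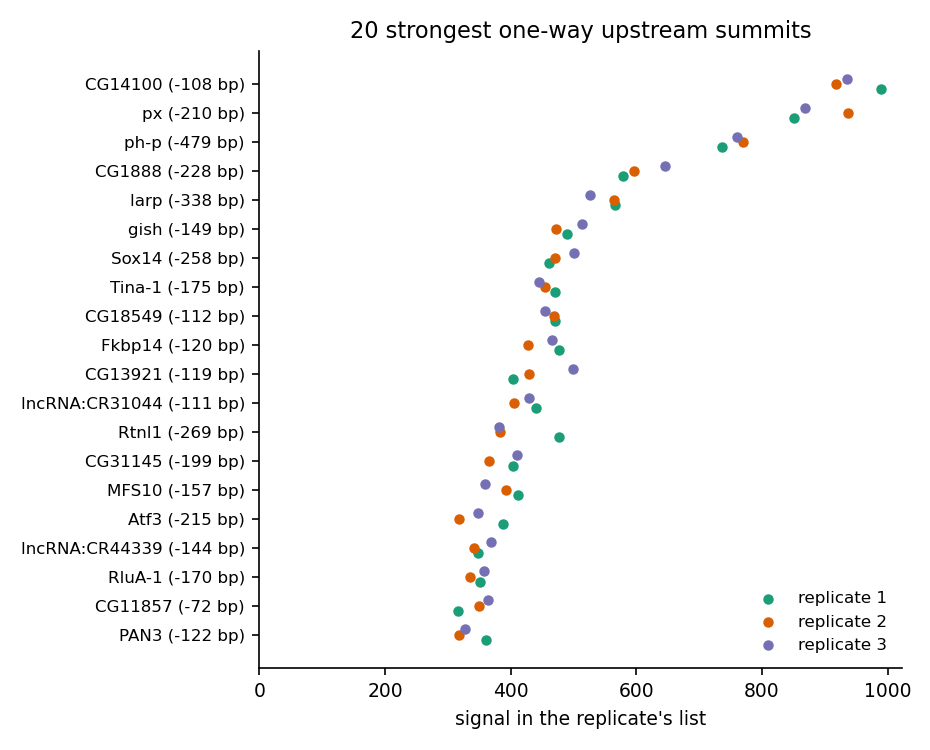
Signal in each replicate's own list for the 20 strongest one-way upstream summits that overlapped a strongest peak in all 3 replicates, with the position of the summit relative to the start. CG14100, px and ph-p lie above the other 17 in all 3 replicates.

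Summits at starts deep inside their own gene had the highest median signal of 4 settings. For 251 summits the start lay over 1000 bp inside its own gene, with a median signal of 204 and a median position of -265 bp. Where a gene on the same strand lay upstream (582 summits) the medians were 167 and -133 bp, with a median of 513.5 bp between the genes. Where the upstream neighbour was divergent but farther away (227 summits, median gap 3066 bp), they were 191 and -192 bp. For 12 of these the gap was at most 1000 bp, all at non-coding genes. At the other 159 summits the start lay inside another protein-coding gene. Only 3 summits lay in a coding exon, 702 in intergenic sequence, 394 in introns, 50 in 5′ UTRs, 38 in 3′ UTRs and 32 in non-coding exons. These signal differences moved with distance from the start, whose part was not tested.

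The 1219 summits belonged to 1117 genes, of which 86 had more than 1. Rtnl1, which encodes an endoplasmic reticulum reticulon, and dnc, the cAMP phosphodiesterase gene dunce, had 5 each at 4 starts. The strongest at Rtnl1 had a signal of 1237 and that at dnc 687. Where 2 summits faced the same start (52 starts) they were 199 to 260 bp apart, with a median of 203 bp. The sharp lower edge and a minimum distance set by the peak caller cannot be told apart.

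Nearest genes were protein-coding for 1124 summits and non-coding RNA genes for 89, with 3 tRNA genes, 1 snRNA, 1 snoRNA and 1 pseudogene. The strongest non-coding case was lncRNA:CR31044 on arm 3R, 111 bp upstream, with 441, 405 and 429.75 in the replicates. tRNA:Tyr-GTA-1-8 had a signal of 737 at -185 bp and the U6 gene snRNA:U6:96Ac 320 at -111 bp. The class held 22.3% to 27.8% of the peaks of each large autosome arm and 25.2% on X, whereas head-to-head summits were 13.4% of peaks on X and 21.8% to 25.1% on the large autosome arms.

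Cytosolic ribosomal protein genes often carried a one-way summit, and it lay close to the start. Of 9534 protein-coding genes with a one-way start, 1024 (10.7%) had a one-way upstream summit. Among cytosolic ribosomal protein genes it was 18 of 38 (47.4%, exact interval 31.0 to 64.2), with a median position of -45 bp and a median signal of 167. RpL23A had 130, 122 and 157 in the replicates at -90 bp, RpS29 had 94.8, 126 and 85.5 at -16 bp, and RpL24 had 93.3, 64.9 and 71.9 at -40 bp. For RpL27A 2 summits overlapped 1 replicate peak. Mitochondrial ribosomal protein genes had 2 of 15 (13.3%), mRpL10 and mRpL19, with signals of 110.4 and 101.06. The lists were chosen with earlier results of these data known, so the shares are descriptions without a test.

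Shares in the other growth and gene expression lists ranged from 0 of 4 to 3 of 6, beside the 10.7% of all one-way genes. Translation factor genes had 7 of 29 (24.1%, 10.3 to 43.5), led by eEF1gamma (104, 84.2 and 112 in the replicates), eEF1alpha1 and eIF2D. Cell cycle and replication genes had 9 of 24 (37.5%, 18.8 to 59.4). Of these Dp, the partner of E2F, had 151.4, 168 and 163 at -218 bp, and cnn, a centrosome protein, and BubR1, a spindle checkpoint kinase, had pooled signals of 369 and 203. RNA polymerase II and general factor genes had 3 of 16 (18.8%): Polr2F, Taf4 and TfIIA-S, with 376, 331 and 324. Histone variants and chaperones had 3 of 6 (50%, 11.8 to 88.2), dre4, Df31 and His3.3B, with 236, 204 and 131. Proteasome genes had 3 of 26 (11.5%), Rpn11, Rpn12 and Prosalpha5, close to the share of all one-way genes. Aminoacyl-tRNA synthetases had 3 of 11, PheRS-m, AlaRS and AspRS-m, with signals of 154, 115 and 108. Membrane traffic genes had 8 of 49 (16.3%), led by Syx4, Rab5 and Syx17 with 295, 282 and 200.0. Splicing factors had 0 of 4 (exact upper bound 60.2%).

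Developmental lists had shares of 12.9% to 30.8%, and the exact intervals of all 5 held the 10.7% of all one-way genes. They had median positions between -229 and -303 bp. Their median signals were 162 for nuclear receptors and 260.2 to 359.9 for the other lists, against 187 over the strongest summit of each gene of the class. Hox and segmentation genes had 4 of 31 (12.9%, 3.63 to 29.8), with a median position of -229 bp. The maternal head determinant bcd had 119, 178 and 128 at -221 bp, nkd, a Wnt antagonist, 143, 135 and 134, and Dfd a pooled signal of 142. Neural and mesoderm determinants had 4 of 28 (14.3%), with a median signal of 326, including elav, the heart gene tin (128, 103 and 144 at -199 bp) and htl, an FGF receptor. Signalling genes had 5 of 33 (15.2%), led by the EGF ligand spi (183, 215 and 200.5 at -207 bp), its antagonist aos and the insulin receptor InR, with pooled signals of 607, 376 and 359.9. Nuclear receptor and ecdysone genes had 5 of 20 (25.0%), led by Eip75B at -6 bp (176, 136 and 143), Hnf4 and eg. Sox and HMG genes had 4 of 13 (30.8%), led by Sox14, cic and Sox102F. Heat shock and chaperone genes had 4 of 19 (21.1%), of which Hsp27 had 279, 299 and 266 at -160 bp, Hsp26 a pooled signal of 269.6 and Hsp60A 121.

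The lists of Polycomb and Trithorax genes, insulator and promoter-binding factors and remodellers were small, and their intervals all held the 10.7% of all one-way genes. That of the histone variants and chaperones given above (3 of 6, 11.8 to 88.2) did not. Polycomb and Trithorax genes had 2 of 13 (15.4%, 1.92 to 45.4), the neighbouring paralogs ph-p and ph-d, with pooled signals of 2176 and 103. Insulator and promoter-binding factors had 3 of 14 (21.4%, 4.66 to 50.8), psq, BEAF-32 and pho, with 266, 192 and 105, and remodellers 1 of 5 (20%, 0.505 to 71.6), kis, with 102. Lists of tissue-restricted genes were nearly empty. Cuticle protein genes had 0 of 108 (exact upper bound 3.36%), chemoreceptor genes 0 of 152 (2.40%) and cytochrome P450 genes 2 of 72 (2.78%), Cyp317a1 and Cyp310a1, with 125 and 114.

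**Figure D5:**
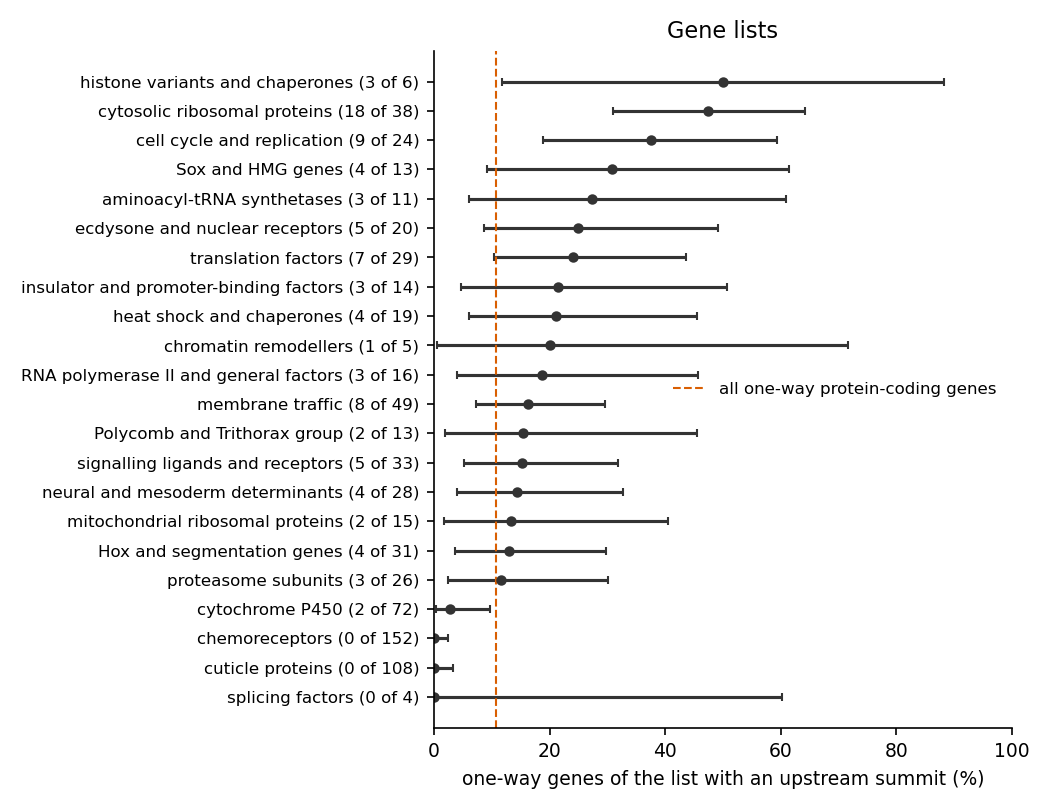
Share of the one-way genes of each list that had an upstream one-way summit, with exact 95% binomial intervals (counting error only) and the share of all 9534 one-way protein-coding genes, 10.7%, as the dashed line. Cytosolic ribosomal protein genes (18 of 38) lie above the line, and chemoreceptor (0 of 152) and cuticle protein genes (0 of 108) below it.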

How the data were processed

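ChIP-seq of Chrac-16-GFP was done on 3 biological replicates, numbered in the labels, with chromatin sonicated to 200 to 800 bp per the labels. The authors deposited dm6 narrowPeak lists: relaxed lists of 30000, 24619 and 29140 peaks for replicates 1, 2 and 3, a pooled relaxed list of 24641 and an optimal list of 4941 thresholded on the irreproducible discovery rate. The deposited signal value of each peak was the authors' own, and its scale differs between lists. The peak caller, like the aligner, was not given in the sources used here. Depth is unknown, since peak lists carry no read numbers. Lists on the dm3 build were not used.

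Summits were classed against Ensembl release 115 starts, all biotypes except transposable elements, with ties given to the upstream side, and sequence read from the release 6 (dm6) genome. A start shared by several genes counted for 1 of them. For replicate tests the 4941 strongest peaks of each replicate were classed by their own summits. Overlap needed 1 bp, and a peak's replicate signal was the highest of the overlapping replicate peaks. Motifs were searched on both strands within 75 bp of the summit, and at starts the TATA box and initiator on the gene's strand only. Differences were tested with the exact two-sided sign-flip permutation test over replicates, adjusted by the Benjamini-Hochberg method over 83 comparisons. Python 3.11.15, numpy 2.4.6, pandas 2.3.3 and scipy 1.17.1 were used, and the classing, distances and motif search were tested on simulated summits.

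The class, the 22 gene lists and the 16 motifs were chosen with earlier results of these data known. After the data were seen, 4 words were added to the motifs, and the distance zones, the comparisons within zones and the shares by level of signal were added. Outdated symbols in the lists were replaced and symbol patterns narrowed before any list was counted. Genes were named by rule: the 20 strongest summits found in all 3 replicates, the 3 of highest signal in each list, 3 on each side of the 500 bp limit, and those whose sequences are shown. Alg3, ATPsynB, RpL27A, the genes with most summits and the leading non-coding genes were named after their values were seen. Sequences of 1 arm are not reported here.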

Additional observations from a re-analysis of the deposited data

How the results depend on the processing

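Of 180 values of 11 results under alternatives, 145 counted as unchanged. They kept their direction or stayed within the replicate spread or counting interval, and the count only had to stay within a wider fixed factor. The count became 645 among the 2470 strongest peaks and 3689 in the pooled relaxed list, beyond that factor. Large changes within it were to 830 and 1471 with limits of 250 and 1000 bp, and to 952 without soft-masked summits. Divergent starts at most 500 and 2000 bp apart gave counts of 1436 and 1040. The replicate SD of the count was 27.5. The median position became -126 bp and -216 bp with limits of 250 and 1000 bp, -170 bp with divergent starts at most 500 bp apart, -193 bp among the 2470 strongest, -174 bp in the relaxed list, -164 bp without soft-masked summits and -173 bp in replicate 3 alone. The share found in all 3 replicates became 99.1% among the 2470 strongest, 28.1% in the relaxed list and 99.9% with whole replicate lists, and 80.9% to 82.9% in both remaining replicates without 1 of them. The summit spread became 33 bp among the 2470 strongest, 58 bp in the relaxed list and 21 to 25 bp without 1 replicate. The share of genes became 7.74% and 12.1% with limits of 250 and 1000 bp, 11.5% and 10.3% with divergent starts at most 500 and 2000 bp apart, 5.94% among the 2470 strongest, 27.7% in the relaxed list, 8.59% without soft-masked summits, 10.3% and 10.1% in replicates 1 and 2 alone, and 10.2% to 10.5% without 1 replicate. The Motif 1 difference from head-to-head summits, -0.393 points (-0.349 to 0.191 without 1 replicate), reversed to 0.481 with the 250 bp limit, 0.480 in replicate 2 alone and 0.0975 with 50 bp on each side of the summit. The causes were not tested. The DRE difference ranged from -9.55 points with 150 bp on each side to -0.976 with the 250 bp limit, and the log2 signal ratio to head-to-head summits from -0.69 in the relaxed list to -0.03 among the 2470 strongest. The tests took differences within each replicate, and beyond that no paired analysis was possible because there is 1 group of samples.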

Other observations

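The GAGA word was more frequent in a fixed window upstream of the starts of the class than around its summits. In windows of 75 bp on each side of the base 100 bp upstream of the start, GAGAG was present at 30.4% of the 1167 starts with a one-way summit (exact 95% interval 27.8 to 33.1), 24.6% of all one-way starts and 22.1% of starts without a summit. The 1167 starts include those of non-coding genes, while the sets compared with them hold protein-coding starts only. Around the summits of the same class GAGAG was at 16.1% (14.1 to 18.3). The DRE share was 4.88% in the first kind of window and 4.68% around the summits. In the first kind of window it was 2.77% at all one-way starts and 1.75% at starts without a summit.

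Matches of several of the 20 motifs searched lay more often on the start side of the summit, and those of some others on the far side. Of 29 Motif 1 matches, 21 lay between the summit and the start side and 8 on the far side, and of 87 CAGCTG matches 62 and 25. CATCNCTA was split 41 to 17, CAACACTG 34 to 17, the Zelda site CAGGTA 26 to 12, CAGCNCTA (a form of Motif 7) 17 to 8 and CACACACA 16 to 4. The half-site CGATA was split 333 to 244, GGTATTTT (the Motif 6 core) 23 to 13 and CACTGTG 47 to 30. The 60 matches of the whole DRE were split 31 to 29 and the 308 GAGAG matches 160 to 147. More matches lay on the far side for the GATA site AGATAA (46 to 84), TATAAA (212 to 276) and AGGTGGCG (10 to 17). The same held for AAAAAAA (291 to 328) and TCAGTT (55 to 64). The E-box CACGTG, bound by Myc and Max, was at 21 summits, whose median signal of 213 was above the 178 of the others, and the replicate medians were 75.3, 70.1 and 70.6 with it and 60.3, 60.9 and 62.6 without. These values were picked out of many after they were seen, and no test was made.

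Soft-masked (repeated) sequence held 267 of the 1219 summits (21.9%).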
